A study of Rattus with 6 samples.

Results

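The genes described here build, bind and cut the extracellular matrix, the protein and sugar network outside the cell. They were taken from an RNA sequencing experiment on RC-4B/C, a cell line grown from a rat pituitary adenoma. Members were taken by gene name: collagens, laminins, integrins, matrix metalloproteinases (Mmp) and their tissue inhibitors (Timp), the Adam, Adamts and Adamts-like families, lysyl oxidases, syndecans, glypicans, and the single genes Fn1, Dcn, Bgn, Sparc and Spp1. The leukocyte integrin gene Itgax was left out, and Thbs1 was not analysed here. This gave 85 of the 12801 genes in the deposited table, with 1735 exons, and 83 of them had a mean level high enough to be tested. There were 3 libraries of RC-4B/C cells treated with ASA (acetylsalicylic acid, aspirin, an inhibitor of the cyclooxygenases) and 3 of RC-4B/C cells labelled as DMSO controls, DMSO being a common solvent. The labels give no dose, no duration of treatment and no genotype beyond the line, and are silent on whether replicates were separate cultures. The p-values therefore measure only the spread between these libraries, which may be technical. The second line that the series design names was not analysed here.

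The matrix is assembled from fibrillar collagens, from basement membranes made of laminins and type IV collagen, and from glycoproteins such as fibronectin. Integrins, each a pair of an alpha and a beta chain, link the matrix to the actin skeleton, while syndecans and glypicans carry heparan sulfate chains at the cell surface. Metalloproteinases and the Adam and Adamts proteases cut matrix and cell surface proteins, the Timp proteins inhibit them, and lysyl oxidases crosslink collagen and elastin. In the pituitary, endocrine cells and the supporting folliculostellate cells meet a basement membrane along the capillaries and cell clusters.

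Levels are RPKM, reads per kilobase of a gene's listed exons per 1000000 reads, given in the order of replicates 1, 2 and 3, numbers that only name the libraries. Depth, the number of reads counted in listed exons, was estimated from the deposited values. The estimate ran from 66492450 to 92073425 reads in ASA libraries and from 82189700 to 94486075 reads in DMSO libraries. ASA replicate 2 stood apart. The scatter of exons within their gene was 0.522 on the log2 scale in it, against 0.135 to 0.148 in the other 5 libraries. Over the members' exons it was 0.689, against 0.154 to 0.177 elsewhere, and 497 exons had 0 reads in it, against 4 to 13. ASA replicate 2 had the lowest level of the 6 libraries for 36 of the 83 tested members (43.4%), where 45.8% of all tested genes were lowest in it. Its part in the results was not tested beyond leaving it out. RNA of a whole culture was sequenced, so fewer cells of a type and less RNA per cell cannot be told apart.

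Aspirin-treated cells carried more transcript of the secreted proteins decorin, fibronectin and osteopontin and of laminin alpha 5, and less of osteonectin, integrin alpha 9, glypican 4 and lysyl oxidase. Differences were tested with limma on log2(RPKM + 0.1), and a gene was called at a Benjamini-Hochberg adjusted p under 0.05 over 12502 genes. Of the 83 tested members 12 were called with all 6 libraries, and none of these without ASA replicate 3 or without DMSO replicate 3. The 6 higher with ASA, 7.23% of the tested members, were Dcn, Fn1, Spp1, Lama5, Mmp24 and Adamtsl5, and 6.21% of all tested genes were called higher. The 6 lower, also 7.23%, were Sparc, Itga9, Gpc4, Adam11, Lox and Col2a1, where 4.99% of all genes were called lower. In both directions together 14.5% of the members were called, near the 11.2% of all genes. Log2 fold changes were positive for 38 members and negative for 45, with a median of -0.13, where the median of all tested genes was -0.06. The median size of the change, regardless of sign, was 0.62 for members and 0.46 for all genes. All 3 ASA libraries lay above all 3 DMSO libraries for 15 members (18.1%, against 19.9% of all genes) and below them for 11 (13.3%, against 18.8%).

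**Figure D1:**
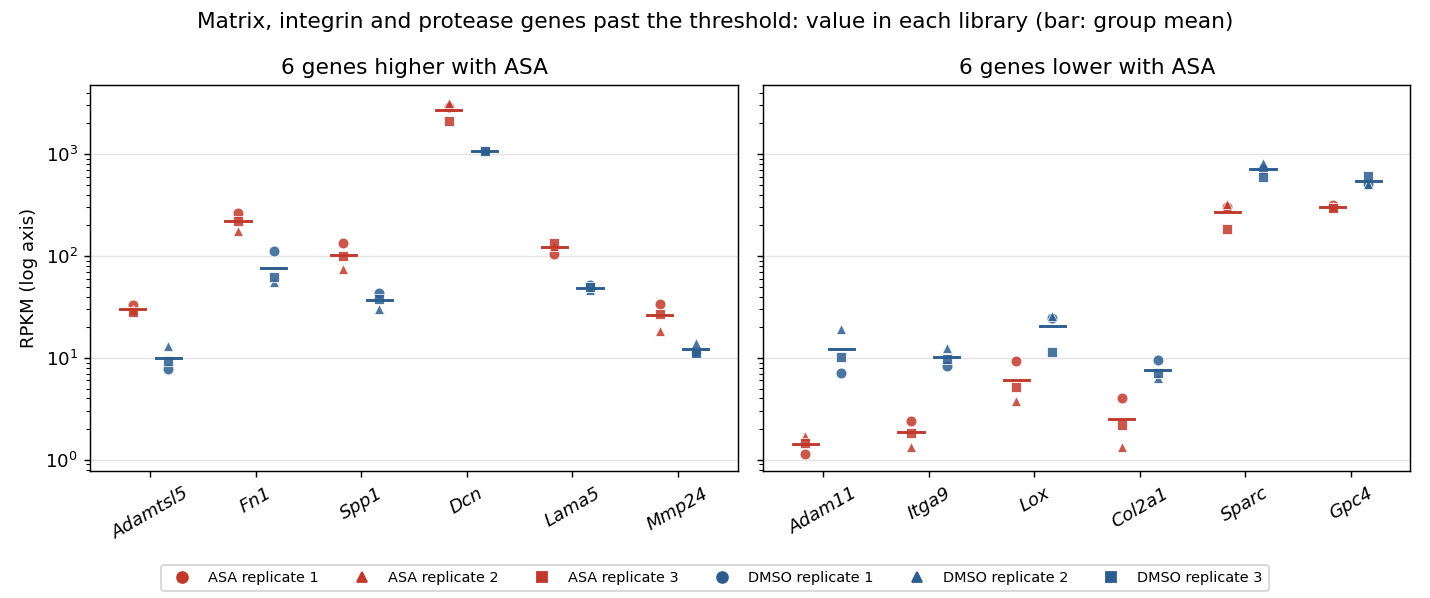
Level in RPKM (log axis) of the 12 members past the limma threshold, 6 higher with ASA on the left and 6 lower on the right; each symbol is a library, red for ASA and blue for DMSO, and bars are group means. The red and blue symbols do not overlap for any of the 12 genes, and the levels run from 1.14 RPKM for Adam11 in ASA replicate 1 to 3207 RPKM for Dcn in ASA replicate 2.

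All 233 listed exons of the 12 called members differed between the group means in the direction of their gene. Among the other 71 tested members 1360 of 1500 exons did so, and 41 of the 71 had every exon on the gene's side. Exons of a gene are parts of its sum in the same libraries, and the called genes were picked for their difference. This agreement, also where given for single genes below, is therefore no separate support for a call. The calls depended on single libraries. The groups of each called member do not overlap, so leaving out a library could not turn its direction. Without ASA replicate 3 or without DMSO replicate 3 none of the 12 passed in the limma fit, with smallest adjusted p-values over all genes of 0.0806 and 0.0789, and 18 and 19 members had an unadjusted p under 0.05 (21.95% and 22.89% of those tested, against 23.41% and 18.72% of all genes tested in those fits). Without DMSO replicate 1 Fn1 and Adam11 were the members called, where 91 of all 12499 genes tested were called. The fit without DMSO replicate 2 called the members Lama5, Itga9, Adam11 and Adamtsl5, and 632 of all 12500 genes tested. Without ASA replicate 2 there were 12 members higher and 7 lower, where 12.8% and 8.07% of all genes were called. The medians over members also turned: without ASA replicate 2 the log2 fold change was positive for 48 members and negative for 35, with a median of 0.16, where that of all genes was 0.06. No fold change of the 12 called members moved by over 1.5 times when a library was left out.

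The secreted glycoproteins and small proteoglycans held 4 of the 12 calls among 5 tested genes, with 3 higher and 1 lower. This was 80% of them, where 11.2% of all tested genes were called. These genes were named singly, not by family, and members were chosen with earlier results of these data known. The share is therefore no result about a class. Dcn encodes decorin, a small leucine-rich proteoglycan that binds collagen fibrils. It had 2888, 3207 and 2113 RPKM in ASA libraries, against 1070.0, 1108 and 1067 RPKM in DMSO libraries. Every ASA library had more than any DMSO library, and the DMSO libraries lay within a narrow range. Its mean was 2736 ± 563 RPKM in ASA and 1082 ± 22.6 RPKM in DMSO libraries (SD, n = 3 each), 2.49-fold higher on the log2(RPKM + 0.1) scale used for all fold changes (log2 fold change 1.32 ± 0.24 SE, limma adjusted p = 0.0213). Fn1 encodes fibronectin, which forms fibrils that integrins bind. Fn1 had 262, 175 and 219.7 RPKM in ASA libraries, against 111, 55.5 and 61.9 RPKM in DMSO libraries. The groups did not overlap, and DMSO replicate 1 was the highest of its group. Its level was 2.98-fold higher with ASA (log2 fold change 1.57 ± 0.29 SE, limma adjusted p = 0.0237). Spp1 encodes osteopontin, a phosphorylated protein that integrins bind. Its levels were 135, 75.1 and 99.7 RPKM in ASA libraries, against 43.6, 30.3 and 38.1 RPKM in DMSO libraries. All ASA values were above all DMSO values, 2.71-fold higher (log2 fold change 1.44 ± 0.26 SE, limma adjusted p = 0.0211).

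Sparc, which encodes osteonectin, a collagen-binding protein of tissues under remodelling, moved the other way. It had 305, 320.0 and 184 RPKM in ASA libraries, against 709, 821 and 601 RPKM in DMSO libraries. Each DMSO library was above each ASA library, with ASA replicate 3 the lowest, and the level was 2.69-fold lower with ASA (log2 fold change -1.43 ± 0.26 SE, limma adjusted p = 0.0219). Dcn was the most abundant of these 5 transcripts per length in every library. It made up 79.6% to 84.2% of their summed RPKM in ASA libraries and 54.8% to 60.2% in DMSO libraries, and Sparc 7.01% to 8.41% in ASA and 33.9% to 40.6% in DMSO libraries. Bgn, the gene of biglycan, the closest relative of decorin, had 38.8, 32 and 8.7 RPKM in ASA libraries, against 18.9, 6.53 and 3.9 RPKM in DMSO libraries. Its replicates spread widely within both groups, ASA replicate 3 was below DMSO replicate 1, and the log2 fold change of 1.48 ± 0.71 SE did not pass (limma adjusted p = 0.207). In the 6 fits without a library, the adjusted p ran from 0.0143 to 0.139 for Dcn, 0.016 to 0.125 for Fn1, 0.00915 to 0.111 for Spp1 and 0.0131 to 0.105 for Sparc. Dcn, Spp1 and Sparc lost their calls when ASA replicate 3 or any DMSO library was dropped, and Fn1 when ASA replicate 3 or DMSO replicate 2 or 3 was. In Rnor_6.0, counting the span of their listed exons, Dcn lies on chromosome 7, 38746078 to 38781772, ENSRNOG00000004554, Fn1 on chromosome 9, 78900804 to 78968804, ENSRNOG00000014288, Spp1 on chromosome 14, 6674116 to 6678133, ENSRNOG00000043451 and Sparc on chromosome 10, 40743465 to 40754662, ENSRNOG00000012840.

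The exons of Fn1 were read one by one, because fibronectin is known for alternative exons. The table lists 46 exons, and the log2 difference between ASA and DMSO means ran from 0.38 to 1.83 over them. Exons 25 and 33, counted from the 5′ end among listed exons and 273 and 270 bases long, were the only exons under 50% of the median Fn1 exon in all 6 libraries. Exon 25 stood at 26.3%, 31.6% and 18% of the median exon in ASA libraries, against 33.4%, 23.4% and 21.6% in DMSO libraries. Exon 33 stood at 36.6%, 41.4% and 36.2% in ASA libraries, against 37.1%, 33.4% and 37.4% in DMSO libraries. The ranges of the groups overlapped for both exons, so their inclusion relative to the rest of the gene did not separate ASA from DMSO libraries. As background, fibronectin genes hold a pair of alternatively spliced exons, EIIIB and EIIIA, that encode a type III repeat each and lie in this order. The table does not name exons, so this match rests on length and order. Exon 4 shows the scatter of ASA replicate 2: it had 12.1 RPKM there, 6.16% of the median exon, against 78.7% to 82.0% in the other 5 libraries.

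**Figure D2:**
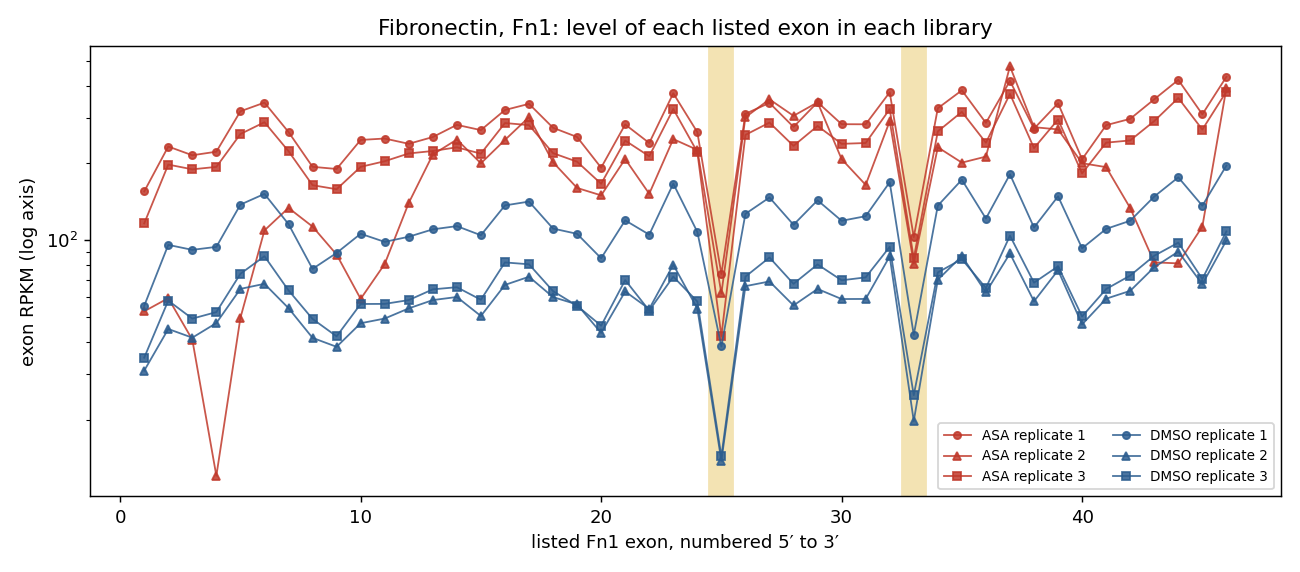
Level in RPKM (log axis) of each of the 46 listed Fn1 exons, numbered 5′ to 3′, in each library; red lines are ASA, blue lines are DMSO, and shading marks exons under 50% of the median exon in all 6 libraries. Exons 25 and 33 dip in every library, and exon 4 drops to 12.1 RPKM in ASA replicate 2 alone.

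Collagens outside the basement membrane had 14 members, 13 of them tested. Col2a1 alone was called, and it was lower with ASA. Col2a1 encodes the fibrillar collagen best known from cartilage. Its levels were 4.01, 1.34 and 2.19 RPKM in ASA libraries, against 9.51, 6.41 and 7.07 RPKM in DMSO libraries. They were low in both groups and did not overlap, 3.21-fold lower with ASA (log2 fold change -1.68 ± 0.43 SE, limma adjusted p = 0.0459). Dropping ASA replicate 3 or any DMSO library ended the call, as did the median exon in place of the exon sum. In the 6 fits without a library its adjusted p ran from 0.0223 to 0.176.

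Col5a2, Col16a1 and Col5a1 had the highest mean levels of this class. Col5a2, an alpha chain of the type V collagen that joins collagen I fibrils, had 743, 148 and 324 RPKM in ASA libraries, against 542, 259 and 395 RPKM in DMSO libraries. It had the highest RPKM of the class in every library, with overlapping groups and a log2 fold change of -0.21 ± 0.55 SE (limma adjusted p = 0.819). Col16a1, a collagen associated with fibril surfaces, had 105, 22.2 and 75.8 RPKM in ASA libraries, against 92.5, 103 and 88.4 RPKM in DMSO libraries. ASA replicate 2 lay far under the other 5 libraries, and the groups overlapped (log2 fold change -0.75 ± 0.52 SE, limma adjusted p = 0.364). Col5a1, the other type V chain, had 58.3, 28.6 and 47.6 RPKM in ASA libraries, against 75.3, 124 and 82.3 RPKM in DMSO libraries. Its groups did not overlap, and its log2 fold change of -1.09 ± 0.31 SE missed the threshold (limma adjusted p = 0.0624). Col11a1, a type XI chain, had 49.7, 14.7 and 29.8 RPKM in ASA libraries, against 83.6, 96.5 and 62.2 RPKM in DMSO libraries. All 3 ASA values were under all DMSO values, with a log2 fold change of -1.50 ± 0.42 SE that did not pass either (limma adjusted p = 0.0587). Col11a2, the second type XI chain, had 2.25, 1.77 and 2.89 RPKM in ASA libraries, against 2.94, 10.9 and 4.45 RPKM in DMSO libraries. ASA values were again the lower ones, with a wide DMSO group and a limma adjusted p of 0.16. Without ASA replicate 1, Col5a1, Col11a1 and Col8a1, the last with overlapping groups in all 6 libraries, were called lower, and Col11a1 was called lower without ASA replicate 2.

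Over the 13 tested genes of the class the log2 fold change was negative for 11, with a median of -0.52, where that of all tested genes was -0.06. This depended on ASA replicate 2: without it the sign was negative for 7 of 13, with a median of -0.08. Relative to the DMSO mean, the class had a median of 0.16, -1.51 and -0.23 in the ASA libraries and of -0.03, 0.28 and -0.16 in the DMSO libraries. The remaining tested collagens of the class, Col8a1, Col14a1, Col17a1, Col20a1, Col22a1, Col27a1 and Col5a3, had overlapping groups. Col10a1, with a mean of 0.203 RPKM, was under the filter of 0.5 RPKM, and Col17a1, with 0.575 RPKM, was the nearest above it. Each of these rests on 1 listed exon. Genes of the fibrillar collagens showed the exon structure known for this family, in which an exon of 54 bases encodes a run of Gly-X-Y triplets. Of the 357 listed exons of 7 fibrillar collagen genes, 164 (45.9%) were 54 bases long and 81.5% had a length that is a multiple of 9. Over all exons of the table the shares were 0.612% and 14.0%.

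The basement membrane genes, 8 laminin chains and the collagens Col4a3, Col4a4 and Col18a1, held 1 call, Lama5, higher with ASA. Lama5 encodes laminin alpha 5, a chain of the laminins of mature basement membranes. It had 105, 126 and 133 RPKM in ASA libraries, against 51.8, 45.9 and 49.2 RPKM in DMSO libraries. The ASA libraries all had over 100 RPKM and the DMSO libraries close to 50, with no overlap and a mean of 122 ± 14.5 RPKM in ASA and 49 ± 2.97 RPKM in DMSO libraries (SD, n = 3 each). Its level was 2.47-fold higher with ASA (log2 fold change 1.30 ± 0.17 SE, limma adjusted p = 0.0126), and 79 of 79 listed exons were higher with ASA, by 0.47 to 1.74 on the log2 scale. In Lama5 18.1% of the recovered values were fractions of a read, and the part of this in its level was not tested. Dropping ASA replicate 3 or DMSO replicate 1 or 3 ended the call (adjusted p 0.00817 to 0.0955 over the 6 such fits). Lama5 lies on chromosome 3, 175553210 to 175601112, ENSRNOG00000053691.

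The other laminins differed among themselves in sign. Lamb2, the beta 2 chain, had 130.2, 92.3 and 137 RPKM in ASA libraries, against 127, 152 and 151 RPKM in DMSO libraries. The groups overlapped, with ASA replicate 2 the lowest (log2 fold change -0.27 ± 0.21 SE, limma adjusted p = 0.397). Lamb1, the beta 1 chain, also had a negative log2 fold change, -0.52 ± 0.27 SE (limma adjusted p = 0.23), with 36.9 to 67.5 RPKM in ASA and 65.9 to 92.3 RPKM in DMSO libraries. Lama4, the alpha 4 chain, had 68.1, 48.7 and 68.1 RPKM in ASA libraries, against 36.6, 44.7 and 35.1 RPKM in DMSO libraries. All ASA values lay above all DMSO values, and the log2 fold change of 0.66 ± 0.21 SE missed the threshold (limma adjusted p = 0.082). Lamb3, the beta 3 chain, known from laminins that anchor epithelial cells, was also without overlap. It had 16.9, 12.2 and 18 RPKM in ASA libraries, against 8.17, 10.4 and 7.73 RPKM in DMSO libraries, with a log2 fold change of 0.83 ± 0.26 SE (limma adjusted p = 0.0779). Without ASA replicate 2, Lama4 and Lamb3 were called higher. Lama2 and Lamc1, the alpha 2 and gamma 1 chains, overlapped between the groups, at 1.79 to 4.08 RPKM in ASA and 2.82 to 3.68 RPKM in DMSO libraries for Lama2 and 28.7 to 60.6 RPKM in ASA and 29.9 to 46.2 RPKM in DMSO libraries for Lamc1.

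Col18a1, the source of the fragment endostatin, had 139, 109 and 136 RPKM in ASA libraries, against 112, 113 and 92.5 RPKM in DMSO libraries. Its groups overlapped within a narrow range (log2 fold change 0.27 ± 0.18 SE, limma adjusted p = 0.353). Of the 11 tested basement membrane genes 8 had a positive log2 fold change, with a class median of 0.39, and of 0.81 without ASA replicate 2. Col4a3 and Col4a4, which are known to share a promoter region and to form the alpha 3 alpha 4 alpha 5 network of type IV collagen, are listed on opposite strands of chromosome 9. They had log2 fold changes of 0.51 ± 0.48 SE and 0.39 ± 0.43 SE, at up to 3.83 RPKM for Col4a3 and 6.56 RPKM for Col4a4 over the 6 libraries.

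**Figure D3:**
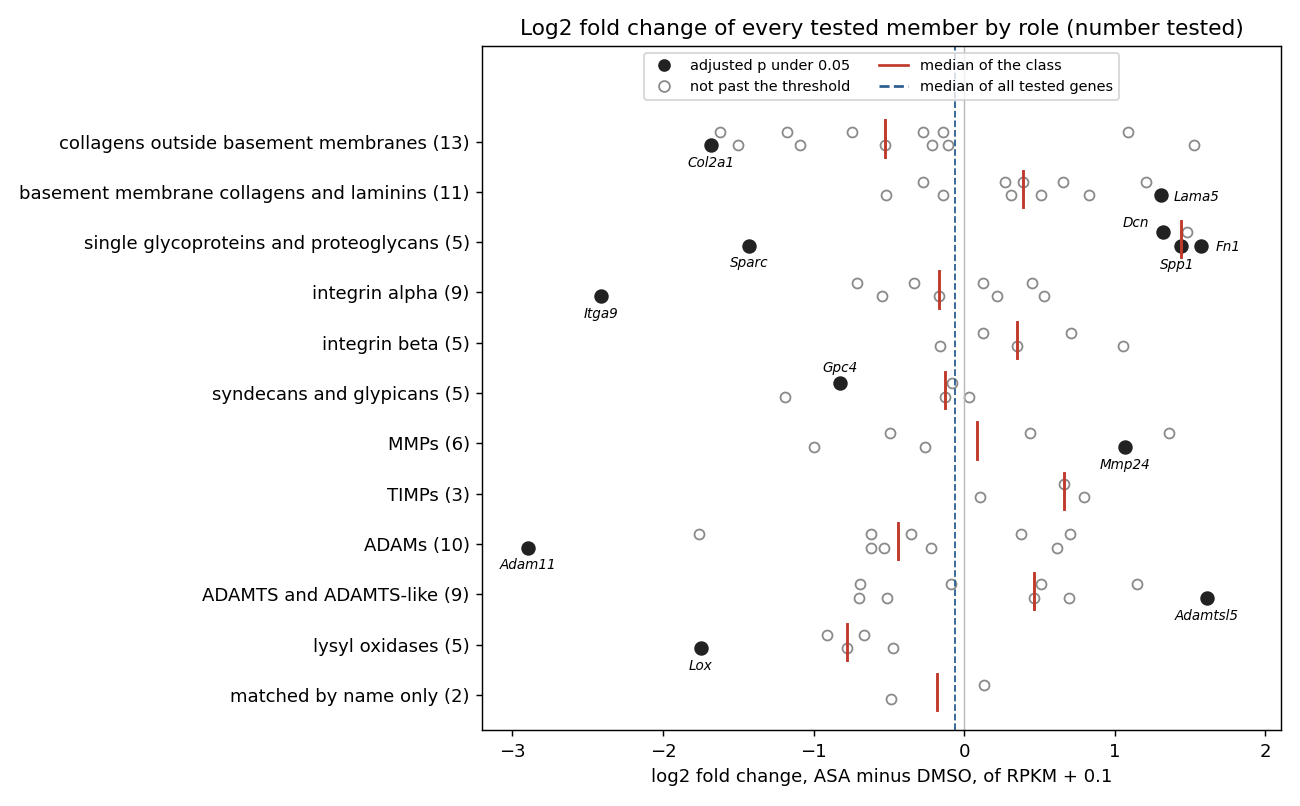
Log2 fold change (ASA minus DMSO, of RPKM + 0.1) of each of the 83 tested members, in rows by role; filled points passed the limma threshold, red bars are class medians and the dashed line is the median of all tested genes at -0.06. Class medians run from -0.78 for the lysyl oxidases to 1.44 for the single glycoproteins and proteoglycans, and the filled points run from -2.89 (Adam11) to 1.61 (Adamtsl5).

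Of the integrin alpha chains, which give integrins their choice of ligand, 9 were tested and Itga9 was called, lower with ASA. Integrin alpha 9 pairs with beta 1 and binds, among others, tenascin C, osteopontin and the alternative EIIIA segment of fibronectin. Itga9 had 2.42, 1.32 and 1.83 RPKM in ASA libraries, against 8.33, 12.4 and 9.81 RPKM in DMSO libraries. The highest ASA value was under the lowest DMSO value by a wide margin, 5.32-fold lower (log2 fold change -2.41 ± 0.33 SE, limma adjusted p = 0.0137). All 26 listed exons were lower with ASA, by log2 differences of -3.17 to -1.92. It lost the call when ASA replicate 3 or DMSO replicate 1 or 3 was dropped, with an adjusted p of 0.00817 to 0.0955 over the 6 such fits. The gene lies on chromosome 8, 127271289 to 127572985, ENSRNOG00000043167.

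No other alpha chain was called with all 6 libraries. Itgav, the alpha V chain of several fibronectin and vitronectin receptors, was the most abundant per length, with 101, 45.6 and 62.2 RPKM in ASA libraries, against 124, 79.4 and 91.5 RPKM in DMSO libraries. The groups overlapped (log2 fold change -0.55 ± 0.31 SE, limma adjusted p = 0.28). Itga6, a laminin receptor chain, had 69.1, 15.8 and 40.1 RPKM in ASA libraries, against 68, 56.5 and 50.5 RPKM in DMSO libraries. ASA replicate 2 was far under the rest, and the log2 fold change of -0.71 ± 0.48 SE did not pass (limma adjusted p = 0.355). Itga3, also a laminin receptor chain, had 79.3, 35.8 and 51.5 RPKM in ASA libraries, against 46.2, 35.4 and 34.8 RPKM in DMSO libraries. ASA replicate 2 lay within the DMSO range and the other ASA libraries above it (log2 fold change 0.45 ± 0.30 SE, limma adjusted p = 0.348). The same held for Itga5, the classical fibronectin receptor chain, with 48.5, 22.9 and 42.6 RPKM in ASA libraries, against 21.7, 27.3 and 26.6 RPKM in DMSO libraries and a log2 fold change of 0.53 ± 0.30 SE (limma adjusted p = 0.281). Without ASA replicate 2, Itga5 was called higher; it is named here because of that change, seen in the values. Itga1, Itga2, Itga10 and Itgae had overlapping groups, at 0.846 to 15.1 RPKM over all libraries, and Itga1 and Itga2, collagen receptor chains that lie 34.7 kb apart on chromosome 2, had log2 fold changes of -0.33 and 0.22. The class median was -0.17, and 0.00471 without ASA replicate 2.

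None of the 5 integrin beta chains was called by limma, and 2 had an unadjusted p under 0.05, where 30.02% of all tested genes did. Itgb1, the partner of most alpha chains named above, had 442, 261 and 415 RPKM in ASA libraries, against 427, 406 and 386 RPKM in DMSO libraries. It took 84.3% to 89.0% of the summed RPKM of the beta chains in ASA libraries and 91.9% to 94.0% in DMSO libraries, and its own log2 fold change was -0.16 ± 0.24 SE (limma adjusted p = 0.667). Itgb4, which joins alpha 6 in the laminin receptor of hemidesmosomes, had 37.7, 23.5 and 33.5 RPKM in ASA libraries, against 19.3, 15.2 and 23 RPKM in DMSO libraries. Its groups just failed to overlap (log2 fold change 0.71 ± 0.26 SE, limma adjusted p = 0.117), and it was called higher without ASA replicate 2. Itgb6, an epithelial chain that pairs with alpha V, had 13.4, 23.5 and 17.8 RPKM in ASA libraries, against 5.92, 12.5 and 8.27 RPKM in DMSO libraries. The lowest ASA value was above the highest DMSO value, with a log2 fold change of 1.05 ± 0.35 SE that did not pass (limma adjusted p = 0.0886). Itgb7 and Itgb3 stayed between 0.501 and 2.09 RPKM with overlapping groups. The rule also caught Itgb1bp1 and Itgb3bp, which are not integrins but are named as integrin beta binding proteins. Itgb1bp1 had 74.5 to 102 RPKM in ASA and 73.1 to 85.8 RPKM in DMSO libraries, and Itgb3bp had 9.18 to 11.2 RPKM in ASA and 9.19 to 17.8 RPKM in DMSO libraries, both uncalled.

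Of the cell surface heparan sulfate proteoglycans 5 were tested, and Gpc4 was called lower with ASA. Glypican 4 is held in the membrane by a lipid anchor and binds growth factors through its sugar chains. Gpc4 had 317, 304 and 293 RPKM in ASA libraries, against 506, 509.6 and 603 RPKM in DMSO libraries. Both groups were tight and well apart, with means of 304 ± 11.9 RPKM in ASA and 539.7 ± 54.9 RPKM in DMSO libraries (SD, n = 3 each). It was 1.77-fold lower (log2 fold change -0.82 ± 0.17 SE, limma adjusted p = 0.0297), the smallest fold change of the 12 called members. Dropping ASA replicate 3 or any DMSO library ended the call (adjusted p 0.0172 to 0.177 over the 6 such fits). Gpc4 lies on chromosome X, 139354835 to 139464318, ENSRNOG00000002413. Gpc6, a related glypican, had 2.03, 2.85 and 1.04 RPKM in ASA libraries, against 6.05, 4.45 and 2.93 RPKM in DMSO libraries. ASA values were all under DMSO values, by a log2 fold change of -1.19 ± 0.45 SE (limma adjusted p = 0.127), which passed without ASA replicate 2. Sdc2, a syndecan, had 64.7 to 91.2 RPKM in ASA and 63.7 to 105 RPKM in DMSO libraries, Sdc4 had 7.4 to 11.6 RPKM in ASA and 6.95 to 15.6 RPKM in DMSO libraries, and Gpc1 had 10.7 to 14.2 RPKM in ASA and 10.8 to 16 RPKM in DMSO libraries. Their groups overlapped, with log2 fold changes of -0.08, -0.13 and 0.03.

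Of the matrix metalloproteinases 6 were tested, and Mmp24 was called higher with ASA. Mmp24 encodes MT5-MMP, a membrane-bound metalloproteinase known mainly from nervous tissue. It had 33.9, 18.2 and 26.8 RPKM in ASA libraries, against 11.5, 13.9 and 11.1 RPKM in DMSO libraries. The lowest ASA value, that of replicate 2, was above the highest DMSO value, 2.09-fold higher (log2 fold change 1.07 ± 0.28 SE, limma adjusted p = 0.0485). This was the call nearest to the threshold, and it ended when ASA replicate 1 or 3 or any DMSO library was dropped (adjusted p 0.011 to 0.204 over the 6 such fits), without the variance trend and with the median exon in place of the exon sum. Mmp24 lies on chromosome 3, 151310598 to 151353114, ENSRNOG00000047028. Mmp16, another membrane-bound metalloproteinase, had 5.82, 8.06 and 5.09 RPKM in ASA libraries, against 9.8, 7.6 and 9.09 RPKM in DMSO libraries, overlapping, with a log2 fold change of -0.49 ± 0.28 SE (limma adjusted p = 0.275). Mmp19, a secreted metalloproteinase, had 19.1, 2.71 and 8.47 RPKM in ASA libraries, against 2.91, 3.85 and 2.22 RPKM in DMSO libraries. Its ASA replicates spread from within the DMSO range to far above it, the log2 fold change of 1.36 ± 0.65 SE did not pass (limma adjusted p = 0.208), and without ASA replicate 2 it was called higher. Mmp14, the activator of the gelatinase encoded by Mmp2, had 3.75 to 7.68 RPKM in ASA and 3.84 to 5.08 RPKM in DMSO libraries. Mmp2 had 0.633 to 3.46 RPKM in ASA and 1.68 to 4.83 RPKM in DMSO libraries and Mmp15 1.38 to 2.11 RPKM in ASA and 1.52 to 3.17 RPKM in DMSO libraries, also overlapping.

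The inhibitors were far more abundant per length than the metalloproteinases, in every library. Timp2 had 545, 398 and 583 RPKM in ASA libraries, against 448, 493 and 461 RPKM in DMSO libraries. The groups overlapped (log2 fold change 0.10 ± 0.20 SE, limma adjusted p = 0.753). Timp1 had 281, 531 and 246 RPKM in ASA libraries, against 222, 194 and 217 RPKM in DMSO libraries. All ASA values were above all DMSO values, with replicate 2 far above the other ASA libraries, and its log2 fold change was 0.66 ± 0.29 SE (limma adjusted p = 0.177). Timp3, which stays bound to the matrix, had 271, 123 and 160.2 RPKM in ASA libraries, against 139, 87.1 and 83.4 RPKM in DMSO libraries. ASA replicate 2 was under DMSO replicate 1, and the log2 fold change of 0.80 ± 0.33 SE did not pass (limma adjusted p = 0.153). None of the 3 was called by limma, and 1 had an unadjusted p under 0.05, where 30.02% of all tested genes did.

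The Adam genes encode membrane proteins with a disintegrin and a metalloproteinase domain, some of them sheddases that release growth factors and receptors. Of 10 tested, Adam11 was called, lower with ASA. Adam11 belongs to the members of the family without protease activity and is known from brain. It had 1.14, 1.71 and 1.45 RPKM in ASA libraries, against 7.03, 19.2 and 10.3 RPKM in DMSO libraries. The ASA libraries were all under 2 RPKM while DMSO replicate 2 was the highest of a wide DMSO group. It was 7.44-fold lower, the largest fold change of the members (log2 fold change -2.89 ± 0.41 SE, limma adjusted p = 0.0143), and rests on 4 listed exons. Dropping either library numbered 3 ended the call (adjusted p 0.0103 to 0.0955 over the 6 such fits). Adam11 lies on chromosome 10, 90741846 to 90746678, ENSRNOG00000002753.

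The most abundant Adam genes were not called. Adam9 had 76.3, 37.3 and 68.2 RPKM in ASA libraries, against 68.7, 63.1 and 71 RPKM in DMSO libraries, Adam10, the main sheddase of Notch, had 36.9, 12.3 and 29.7 RPKM in ASA libraries, against 41.6, 31 and 37.9 RPKM in DMSO libraries, and Adam17, the tumour necrosis factor converting enzyme, had 41.6, 9.54 and 27.7 RPKM in ASA libraries, against 35.4, 22.3 and 29 RPKM in DMSO libraries. In each of these 3 genes ASA replicate 2 was the lowest of the 6 libraries, and log2 fold changes were -0.22 ± 0.28 SE, -0.62 ± 0.40 SE and -0.35 ± 0.51 SE. Adam12, a protease of muscle and bone precursors, had 11.8, 1.95 and 5.26 RPKM in ASA libraries, against 18.4, 12 and 22.4 RPKM in DMSO libraries. ASA values were under all DMSO values, barely so for replicate 1, with a log2 fold change of -1.76 ± 0.60 SE (limma adjusted p = 0.098). It was called lower without ASA replicate 1. Adam8, best known from leukocytes, had 2.35, 2.3 and 2.97 RPKM in ASA libraries, against 1.72, 2.11 and 1.14 RPKM in DMSO libraries, without overlap, and a log2 fold change of 0.62 ± 0.35 SE (limma adjusted p = 0.278). Adam15, Adam19, Adam23 and Adam32 had overlapping groups, at 0.418 to 10.8 RPKM over all libraries. The class median was -0.44, and 0.06 without ASA replicate 2, with 7 of 10 negative in the first case and 4 of 10 in the second.

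The Adamts genes encode secreted proteases that act on procollagen, aggrecan and versican, and the Adamts-like genes encode relatives without a protease domain. Of 9 tested, Adamtsl5 was called higher with ASA. It had 32.8, 29.7 and 27.9 RPKM in ASA libraries, against 7.72, 12.9 and 9.36 RPKM in DMSO libraries. The ASA libraries lay close together and far above the DMSO libraries, 3.05-fold higher (log2 fold change 1.61 ± 0.25 SE, limma adjusted p = 0.0163). In it 19.4% of the recovered values were fractions of a read, and it overlaps AC120291.3, a gene listed on the opposite strand. The use of strand in counting is not given in the sources used here, so reads of the overlapping genes cannot be told apart. It lost the call when ASA replicate 3 or DMSO replicate 1 or 3 was dropped (adjusted p 0.012 to 0.105 over the 6 such fits). Adamtsl5 lies on chromosome 7, 12231606 to 12234518, ENSRNOG00000033787.

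Adamts10, which takes part in microfibril assembly, had 29.3, 25.5 and 23.8 RPKM in ASA libraries, against 18.7, 19 and 17.3 RPKM in DMSO libraries. It was without overlap at a log2 fold change of 0.51 ± 0.19 SE (limma adjusted p = 0.127). Adamts4, an aggrecanase, had 15.1, 4.88 and 8.1 RPKM in ASA libraries, against 10.4, 13.4 and 12.6 RPKM in DMSO libraries, with ASA replicate 1 above all DMSO libraries and the others under them. Adamtsl4 had 5.83, 6.91 and 5.31 RPKM in ASA libraries, against 5.03, 4.78 and 3.35 RPKM in DMSO libraries, without overlap and with a limma adjusted p of 0.325. Adamts6, with 0.968 to 2.22 RPKM in ASA and 0.862 to 1.08 RPKM in DMSO libraries, was called higher without ASA replicate 2. Adamts1, Adamts2, Adamts7 and Adamts9 had overlapping groups between 0.440 and 16.8 RPKM. Adamtsl3, with a mean of 0.336 RPKM and 1 listed exon, was under the filter.

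Lysyl oxidases, the copper enzymes that crosslink collagen and elastin, had 5 tested members, all with a negative log2 fold change, and Lox was called. Lox had 9.39, 3.81 and 5.19 RPKM in ASA libraries, against 24.7, 26 and 11.4 RPKM in DMSO libraries. The highest ASA value was just under the lowest DMSO value, 3.36-fold lower (log2 fold change -1.75 ± 0.44 SE, limma adjusted p = 0.0459). Dropping any library but ASA replicate 1 ended its call (adjusted p 0.028 to 0.162 over the 6 such fits), as did dropping both libraries numbered 2, no variance trend, or the median exon in place of the exon sum. The gene lies on chromosome 18, 47504953 to 47513030, ENSRNOG00000014426. Loxl2 had 154, 49.1 and 107 RPKM in ASA libraries, against 158, 97.1 and 141 RPKM in DMSO libraries, Loxl1 had 132, 52 and 65.7 RPKM in ASA libraries, against 137, 121 and 109 RPKM in DMSO libraries, and Loxl4 had 65.9, 9.68 and 31.7 RPKM in ASA libraries, against 53.3, 38.9 and 49.7 RPKM in DMSO libraries. ASA replicate 2 had the lowest value of the 6 in each, ASA replicate 1 was within or above the DMSO range, and the log2 fold changes were -0.47 ± 0.41 SE, -0.67 ± 0.33 SE and -0.78 ± 0.61 SE. Loxl3 had 8.58 to 29.4 RPKM in ASA and 27.2 to 31.4 RPKM in DMSO libraries. The class median was -0.78, and -0.39 without ASA replicate 2, when all 5 were still negative. Without ASA replicate 1, Loxl1 and Loxl3 were called lower.

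**Figure D4:**
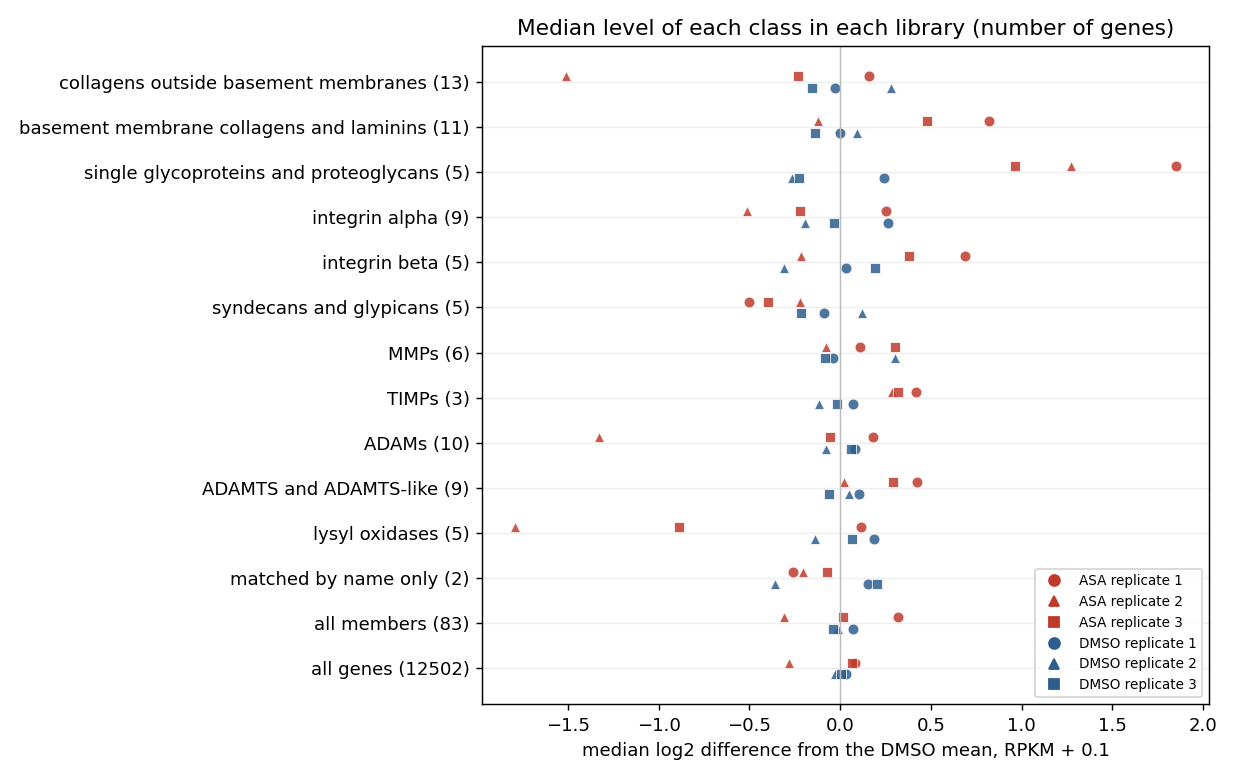
Median log2 difference (RPKM + 0.1) of each class, of all 83 members and of all tested genes from the DMSO mean, in each library; red symbols are ASA, blue symbols are DMSO, and triangles are the libraries numbered 2. ASA replicate 2 lies at -1.51 for the collagens outside basement membranes, -1.33 for the ADAMs and -1.79 for the lysyl oxidases, where ASA replicate 1 lies at 0.16, 0.18 and 0.11.

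Genes that make, modify or act beside these members were described from lists, with the same fit, in which 6.21% of all tested genes were called higher and 4.99% lower. Of 16 collagen biosynthesis genes 2 (12.5%) were called, both lower: Serpinh1, the collagen chaperone HSP47, 2.04-fold (limma adjusted p = 0.0434), and P3h1, a prolyl 3-hydroxylase, 2.62-fold (limma adjusted p = 0.0467). The median log2 fold change of that list was -0.19. Of 33 genes of the integrin adhesion complex, which links integrin tails to actin, 5 (15.2%) were higher and 1 (3.03%) lower, with a median of 0.01. Git1 was 2.44-fold, Tns2 2.18-fold, Vasp 1.86-fold, Bcar1 1.71-fold and Tns1 2.31-fold higher, and the kinase gene Ptk2b was 1.81-fold lower. Of 18 other glycoproteins 2 (11.1%) were higher and 1 (5.56%) lower, with a median of 0.23. Mfge8, an integrin-binding milk fat globule protein, was 2.09-fold higher, Ltbp4 1.72-fold higher, and Fbn1, the fibrillin 1 gene, 2.25-fold lower.

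Of 16 genes of hyaluronan and large proteoglycans 1 was higher, the hyaluronidase gene Hyal1 (2.98-fold), and 1 lower, the hyaluronan synthase gene Has3 (2.99-fold), each 6.25% of the list, with a median of -0.23. Among 18 genes of heparan sulfate synthesis and editing 2 were higher and 2 lower, each 11.1%, with a median of 0.11. Extl1 had 8.96, 6.33 and 10.4 RPKM in ASA libraries, against 1.04, 2.45 and 0.941 RPKM in DMSO libraries, 5.86-fold higher, and B3gat3, which completes the linker of the sugar chain to the protein, was 2.3-fold higher. The sulfotransferase gene Hs6st2 was 2.51-fold lower, and Sulf1, an enzyme that removes sulfate groups outside the cell, 2.97-fold lower. Among 14 genes of the plasminogen system and other protease control 3 (21.4%) were higher and none lower in the limma fit, with a median of 0.62. An unadjusted p under 0.05 was found for 8 of the 14 genes and for 30.02% of all tested genes. Among them were Ctsb, the cathepsin B gene, at 1254, 1398 and 1840.2 RPKM in ASA libraries, against 521, 589 and 558 RPKM in DMSO libraries (2.66-fold), and Plaur, the urokinase receptor gene (1.74-fold). Adjusted p-values of the called genes in these 6 lists lay between 0.0135 and 0.0474. Some calls also ended under other settings. Without the variance trend Serpinh1, P3h1, Ptk2b, Bcar1, Fbn1, Ltbp4, Sulf1 and Plaur did not pass (adjusted p 0.0558 to 0.0675). With the median exon as gene value P3h1, Vasp, Bcar1, Tns1, Mfge8, Ltbp4, Has3, Sulf1 and Plaur did not pass (adjusted p 0.0502 to 0.104). With median-ratio size factors Ptk2b and Fbn1 did not pass (adjusted p 0.0689 and 0.0713). All 6 lists had 0 calls in limma when ASA replicate 3 or DMSO replicate 1 or 3 was dropped. Over all tested genes these fits called 0, 91 and 0. The collagen biosynthesis list and the other glycoproteins also had none without DMSO replicate 2, where 632 of all genes were called. A share of 12.8% of all genes was called higher and 8.07% lower without ASA replicate 2. In that fit the counts higher and lower were 0 and 4 of 16 for collagen biosynthesis, 7 and 1 of 33 for the adhesion complex and 4 and 1 of 18 for other glycoproteins. They were 2 and 3 of 16 for hyaluronan, 5 and 3 of 18 for heparan sulfate, and 5 and 1 of 14 for the plasminogen list.

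Transcripts of Prl and Pou1f1 were found in all 6 libraries. Prl, the prolactin gene, had 14037, 62101 and 26174 RPKM in ASA libraries, against 22006, 62169.9 and 41835 RPKM in DMSO libraries, and Pou1f1, the factor of the lactotroph lineage, had 603 to 804 RPKM in ASA and 584 to 714 RPKM in DMSO libraries. Of the 12 pituitary markers 8 had rows in the table, and Gh1, Lhb, Fshb and Tshb had none. Pomc had 0.919 to 1.52 RPKM in ASA and 0.934 to 2.62 RPKM in DMSO libraries. Of the 8 with rows 1 (12.5%) was called, where 11.2% of all tested genes were. This was Cga, the glycoprotein hormone alpha subunit gene, 9.84-fold lower with ASA (limma adjusted p = 0.0137). Matrix genes are often read as a sign of fibroblasts, and 6 of 12 fibroblast markers had rows. The markers Pdgfra, Fap, Tcf21, Col1a1, Col1a2 and Col3a1 had none. The summed level of the 6 with rows was 3629 to 6544 RPKM in ASA libraries and 3085 to 3854 RPKM in DMSO libraries. It was made up mostly of Dcn, which is a member here, and Thy1. Thy1 had 2166, 3254 and 1480.2 RPKM in ASA libraries, against 2690.2, 2140.1 and 1960.5 RPKM in DMSO libraries, with overlapping groups, Pdgfrb had 9.04, 4.66 and 4.83 RPKM in ASA libraries, against 2.39, 1.39 and 0.878 RPKM in DMSO libraries, 3.89-fold higher (limma adjusted p = 0.0372), and its call ended with the median exon as gene value (adjusted p 0.0632). S100a4, a calcium-binding protein gene, had 10.4, 3.67 and 4.12 RPKM in ASA libraries, against 19.7, 7.47 and 17.9 RPKM in DMSO libraries. Its groups overlapped and it was not called (log2 fold change -1.34 ± 0.52 SE, limma adjusted p = 0.13). Lum, the lumican gene, was not called either (log2 fold change -0.23 ± 0.41 SE, limma adjusted p = 0.734). Over the 6 markers 2 (33.3%) were called higher, Pdgfrb and the member Dcn, where 6.21% of all tested genes were. On the log2 scale 4 of the 6 fold changes were negative, and the median was -0.13. Vim, the vimentin gene that mesenchymal cells carry in abundance, had 1.11 to 2.55 RPKM in ASA and 1.6 to 2.51 RPKM in DMSO libraries. Of 8 endothelial markers only Vwf had a row, at 0.693 to 0.825 RPKM in ASA and 0.311 to 0.865 RPKM in DMSO libraries. Of 10 leukocyte markers 2 had rows. Cd68 had 28.9, 210.1 and 69.4 RPKM in ASA libraries, against 1.9, 3 and 2.54 RPKM in DMSO libraries, 29.6-fold higher (limma adjusted p = 0.0126), and Cd14 had 19.3, 3.28 and 10.1 RPKM in ASA libraries, against 18.2, 19.8 and 34.5 RPKM in DMSO libraries. The 3 of 8 folliculostellate markers with rows summed to 457 to 762 RPKM in ASA libraries and 1130 to 2104 RPKM in DMSO libraries. Most of this was Anxa1, the annexin A1 gene, with 689, 449 and 447 RPKM in ASA libraries, against 2057, 1114 and 1942 RPKM in DMSO libraries. Anxa1 was 3.18-fold lower (limma adjusted p = 0.0228). Gja1 and Cx3cl1 were not called (log2 fold changes -0.35 ± 0.91 SE and -0.84 ± 0.38 SE, limma adjusted p = 0.818 and 0.187). Each marker call above ended without ASA replicate 3 and without DMSO replicate 3, where limma called 0 of all tested genes. The part of these marker differences in the results for the matrix genes was not tested.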

How the data were processed

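Polyadenylated RNA from RC-4B/C cells, 3 ASA and 3 DMSO samples, was sequenced from directional libraries, per the labels' protocols. Named in the submitters' processing notes are the build Rnor_6.0 and edgeR 3.26.8, TopHat2 2.1.0, Bowtie2, cutadapt 1.14 and Trim Galore 0.4.1. How reads were counted, with which strand setting and annotation release, is not given in the sources used here. Per the file headers, the authors deposited log2 RPKM for 118147 exons, with each exon's length in bases. Undoing the log and removing a constant of 0.00292 reads per 1000000, 0.25 read at the mean depth, gave whole reads within 0.02 read for 95.7% to 96.8% of values per library. The depth of each library was not given but chosen as the one that brought its values nearest to whole reads. Every listed exon has over 10 reads in at least 4 of 6 libraries, so the table cannot hold an exon seen in 1 group only. Gene RPKM is the sum of these reads over listed exons per kilobase per 1000000, summed by gene identifier.

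The test was limma 3.58.1 in R 4.3.3, two-sided, with eBayes moderation along the mean-variance trend. It compared ASA with DMSO on log2(RPKM + 0.1), with no covariate, in the 12502 genes with a mean of at least 0.5 RPKM, with Benjamini-Hochberg adjustment over all of them and a threshold of 0.05. The added 0.1 understates changes of low genes. The alternatives were other pseudocounts, filters, scalings, variance models and gene values, and leaving out libraries. Every called member was named, with the 3 most abundant of each class, up to 3 uncalled members without overlap and up to 4 called genes of each other list by smallest p; Tns1, Ptk2b and those whose call changed with a left-out library were named after their values were seen. Some genes that this rule takes are not named here. Members, lists and tests were chosen with earlier results of these data known.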

Additional observations from a re-analysis of the deposited data

How the results depend on the processing

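All 12 called members kept their direction in every alternative run. Where libraries were left out this could not be otherwise, as the groups of these members do not overlap. The counts of all genes, of members higher and of members lower stayed within 1.5 times of 1400, 6 and 6 with a pseudocount of 1, no filter, a filter of 1 RPKM, median-ratio size factors (1573, 8 and 8), no variance trend (1129, 5 and 5), the median exon as gene value (948, 5 and 4) and voom on the recovered reads (1382, 6 and 6). Library quality weights gave 5745 genes, 25 of 83 members higher and 15 lower. Of all 12502 genes 3168 were higher and 2577 lower in that fit. The default method for these weights did not converge, and the gene-by-gene method was chosen after seeing that. Without both libraries numbered 2 there were 3149 genes and 15 members higher and 9 lower, where 13.8% and 11.3% of all genes were called. With 1 library dropped at a time, the counts ran from 0 to 2618 genes, from 0 to 12 members higher and from 0 to 12 lower. The lowest came when either library numbered 3 was dropped, and the cause was not tested. No paired analysis was possible because the labels give the groups no shared replicate numbers. Counts for the other lists under these alternatives were added after seeing the data. Depth limits low members most: the least covered, Itgb3 and Col17a1, had 4 reads in a library.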

Other observations

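Besides exons 25 and 33 of Fn1, the members with at least 5 listed exons and a mean of at least 20 RPKM had 3 exons under 50% of the gene's median exon in all 6 libraries. Exon 36 of 62 in Col22a1, 105 bases long and counted 5′ to 3′ among listed exons, stood at 25.1% to 46.5%. The first listed exons of Itga5 (374 bases) and Lama5 (309 bases) stood at 23.2% to 40.2% and 31.1% to 44.9%. The members took 1.91%, 1.26% and 1.49% of the reads of ASA replicates 1, 2 and 3, and 1.44%, 1.30% and 1.29% of those of DMSO replicates 1, 2 and 3. ASA replicate 1 had the highest level of the 6 libraries for 32 of the 83 tested members (38.6%), where 18.3% of all tested genes were highest in it. Relative to the mean of the other ASA libraries, ASA replicate 2 had a median log2 level of -0.70 over members and -0.34 over all genes. The median listed length was 2262 bases for members and 1219.5 bases for all tested genes. Up to and above the median length of each set, the level was -0.51 and -0.83 for members. For all tested genes it was -0.28 and -0.39. The part of length in the gap between members and all genes was not tested.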
